A study of Rattus norvegicus with 24 samples.

Results

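Receptors, ligands and signalling proteins of the gp130 cytokine pathway were followed in thoracic propriospinal (TPS) neurons, the spinal interneurons whose axons run down the cord from thoracic to lumbosacral segments. The set held the receptor genes Lifr, Il6st, Osmr and Cntfr and the ligand genes Lif and Cntf. It also held the kinase genes Jak1 and Jak2, the transcription factor gene Stat3 and the inhibitor gene Socs3. These 10 genes were chosen with earlier results of these data known, and the study had already named Lifr and Stat3 as changed. Their probe sets were found by symbol in the platform annotation. Each was represented by 1 probe set, out of 14324 genes that a single-symbol probe set named in all, and each passed the filter on low values. The animals were female Long Evans rats of 77 ± 10 days, and every rat, controls included, had Fluoro-Gold injected into the lumbosacral enlargement to label TPS neurons backwards along their axons. Transected rats then had the cord cut completely at the T9 vertebral level 1 week after labelling, and were sampled 3 days (n = 4), 1 week (n = 4), 2 weeks (n = 2) or 1 month (n = 2) later. Uninjured controls formed the 4-day, 2-week and 1-month control groups (n = 4 each); these names follow the sample labels, while the study's methods time the same controls from the tracer injection. The 3-day and the 1-week rats were both compared with the 4-day controls, the others with the controls of their own name. An error in the 4-day controls therefore enters both early comparisons. By the study's table the 1-week rats were sampled 2 weeks after labelling and the controls compared with them 10 days after it. The 1-week comparison was thus not matched in labelling time. Labelled neurons were cut out one by one with a laser from the intermediate gray matter of T5 to T8, and their RNA was amplified and read on Rat Gene 1.0 ST arrays, 1 array per rat and 24 in all.

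Cytokines of this family act on a receptor that includes gp130, the shared signalling chain encoded by Il6st. Ligand binding brings gp130 together with a partner such as the LIF receptor or the oncostatin M receptor, the JAK kinases bound to them phosphorylate STAT3, and STAT3 moves to the nucleus and turns on target genes, among them Socs3, whose product then blocks the receptor. In injured peripheral neurons this pathway is known as part of the response of the cell body to axotomy.

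Values are log2 intensities, and a difference of 1 is a doubling of intensity; levels of different genes were not set against each other, since each probe set has its own brightness. Differences were tested with limma over 23240 probe sets in 1 model of the 7 groups, with Benjamini-Hochberg adjustment, and a gene is said to have been up-regulated or to have risen only at an adjusted p under 0.05. Array medians ran from an intensity of 73.6 to 81.3, and 4-day controls 3 and 4 stood apart from their group, with array quality weights of 0.328 and 0.477. 4-day control 3 was the lowest of the 4-day controls for 7 of the 10 genes. The label of the cells was checked against markers. The neuronal genes Snap25, Nefm and Thy1 had group means of 12.24 to 12.33, 12.02 to 12.13 and 12.09 to 12.36. The neuronal gene Rbfox3 had group means of 8.49 to 9.14. Genes of other cells also had values above the filter on low values (5.05), with group means of 9.15 to 11.37 for the astrocyte gene Gfap, 7.11 to 9.03 for C1qb and 5.49 to 7.66 for Itgam, the last pair being genes of microglia and macrophages. In pooled cells of this kind, a different number of cells of a type and a different amount of RNA per cell cannot be told apart.

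Upstream sequence is shown for the 3 genes whose transected arrays stood highest against controls (Stat3, Lifr and Osmr) and for the shared chain Il6st, which holds a match to a STAT motif. Each line gives the 100 bases before the annotated start of the gene, 5′ to 3′ on the gene's strand, from RefSeq on rat build GRCr8, with the motif match in capitals.
Stat3, chr10:86363360-86363459 (- strand): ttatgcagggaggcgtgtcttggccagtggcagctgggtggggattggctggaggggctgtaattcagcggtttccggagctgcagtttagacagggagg
Lifr, chr2:57963289-57963388 (+ strand): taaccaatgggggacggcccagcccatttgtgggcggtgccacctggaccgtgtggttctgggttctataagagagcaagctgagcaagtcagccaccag
Osmr, chr2:57688562-57688661 (- strand): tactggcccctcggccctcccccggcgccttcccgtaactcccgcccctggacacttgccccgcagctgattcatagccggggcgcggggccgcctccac
Il6st, chr2:45810132-45810231 (+ strand): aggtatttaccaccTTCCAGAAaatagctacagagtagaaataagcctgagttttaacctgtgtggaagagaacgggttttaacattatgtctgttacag

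The palindrome TTCNNNGAA, the usual form of a STAT site, which reads the same on both strands, was looked for in the 250 bases before and the 50 after the start. It was present in 0 of the 7 members with a promoter in the table, against 8.87% of 33469 promoters of the same length. The shorter spacing TTCNNGAA was found in Il6st, as TTCCAGAA starting 86 bases before the start, and in Cntf, as TTCGGGAA starting 156 bases before it, against 8.77% of promoters. The table held no entry for Cntfr, Lif and Jak1. The 250 bases before the start were 60.8% G or C in Stat3, 48.0% in Lifr, 67.6% in Osmr and 36.0% in Il6st, beside a median of 51.2% over all promoters.

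**Figure D1:**
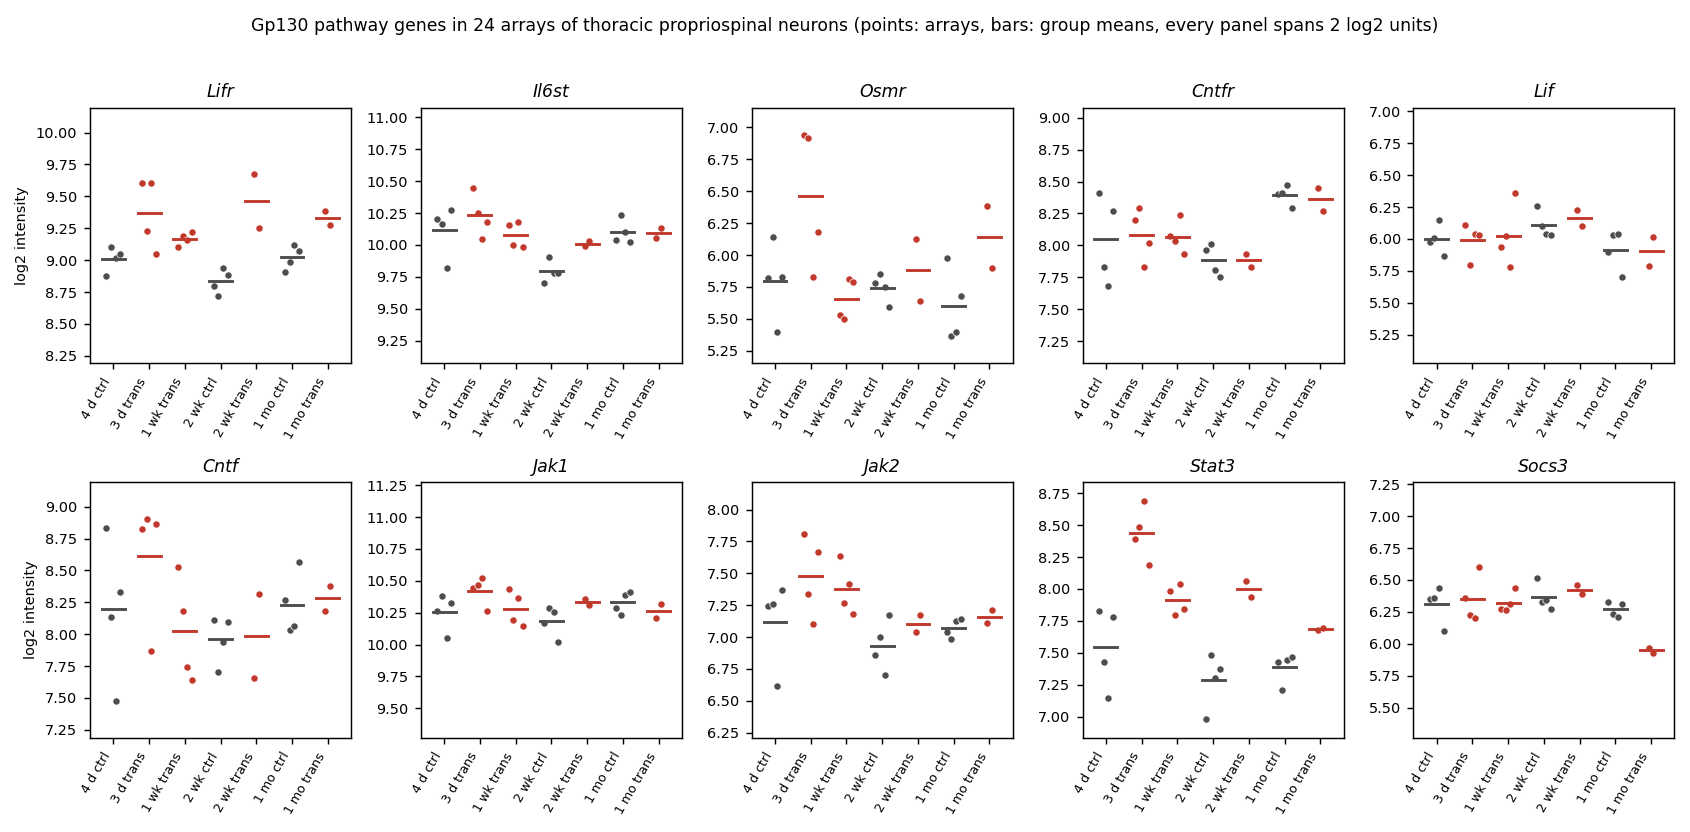
Log2 intensity of the 10 genes in each of the 24 arrays, by group (grey, controls; red, transected; points, arrays; bars, group means; each panel spans 2 log2 units on its own level). All 4 arrays of 3 days lie above the 4-day controls for Stat3, and 10 of 12 transected arrays lie above all 12 controls for Lifr.

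Stat3 was the only one of the 10 genes to be up-regulated at 3 days, and Stat3 and Lifr were the only 2 that were up-regulated over the 4 times together. At 3 days 9 of the 10 genes had a higher mean than in the 4-day controls, with a median log2 difference of 0.26 against -0.01 over all probe sets tested, but 1 passed the test, where 2.89% of all probe sets did. For the average of the 4 times the count was 2 of 10, against 0.404% of all probe sets. The study had already named Stat3 and Lifr as changed in these arrays. The counts of called members are therefore not independent of how the genes were chosen. At 1 week, 2 weeks and 1 month none of the 10 passed limma's test, and 0% of all probe sets passed in each of these 3 comparisons. At an unadjusted p under 0.05 limma had 1 of the 10 genes at 1 week, 2 at 2 weeks and 2 at 1 month, beside 1031, 1229 and 799 of the 23240 probe sets. The methods' t-test, with equal variances in the 2 groups, which the study applied by time to the genes of its PCR comparison and which was run here on all probe sets, had 0 of the 10 after adjustment at each of these times.

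Among the receptor genes, Lifr, which encodes the LIF receptor chain that pairs with gp130, was higher after transection at every time. Its values were 9.60, 9.23, 9.60 and 9.04 in 3-day animals 1 to 4, beside 8.87, 9.10, 9.02 and 9.05 in 4-day controls 1 to 4. Animals 1 and 3 were the high ones and animal 4 lay among the controls. The log2 difference of 0.36 (SE 0.11, 95% interval 0.13 to 0.59) did not pass the test (adjusted p = 0.0875), and it was 0.47 (adjusted p = 0.0221) without 3-day animal 4. At 1 week Lifr ran from 9.10 to 9.22, with every array just above the highest control, and the difference was 0.16 (SE 0.11, 95% interval -0.07 to 0.39).

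At 2 weeks Lifr was 9.67 and 9.25 in animals 3 and 4, against 8.80, 8.72, 8.93 and 8.88 in 2-week controls 1 to 4. Both animals lay above every control, animal 3 by the wider gap. The log2 difference of 0.63 (SE 0.14, 95% interval 0.35 to 0.91) ranked number 7 of all probe sets by p, yet its adjusted p was 0.431 with 2 animals, and it was 0.42 without animal 3 and 0.84 without animal 4. At 1 month Lifr was 9.38 and 9.28 in animals 1 and 2, against 8.91, 8.98, 9.12 and 9.08 in the controls, again with no overlap, and the difference was 0.31 (SE 0.14, 95% interval 0.03 to 0.59, adjusted p = 1).

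Over the 4 times Lifr rose by 0.36 (SE 0.068, 95% interval 0.22 to 0.50, adjusted p = 0.0152), a 1.29-fold change. In all, 10 of the 12 transected arrays exceeded the highest of the 12 controls (9.12), a pattern of 9 or more that 0.146% of probe sets had. The call was lost without 2-week animal 3 (adjusted p = 0.0858) and without 1-month animal 1 (adjusted p = 0.0663), where the remaining animal of the group is assumed to vary like the others, and without 4-day controls 3 and 4 together (0.38, adjusted p = 0.0908), a setting chosen after the data were seen. By its pattern over the 24 arrays, each gene centred on its own mean, the genes nearest to Lifr were Camk2d, a calcium-dependent kinase subunit, Ncam1, a neural adhesion molecule, and Flrt3, a membrane adhesion protein. Their root mean square distances were 0.15, 0.16 and 0.16, where Lifr itself had an SD of 0.25.

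Osmr, the oncostatin M receptor chain, was up-regulated at 3 days relative to 1 week, but not relative to the 4-day controls. Its values were 6.94, 6.92, 5.83 and 6.18 in 3-day animals 1 to 4, and 5.82, 6.14, 5.39 and 5.83 in 4-day controls 1 to 4. Animals 1 and 2 were high and animal 3 lay among the controls. The difference of 0.67 (SE 0.21, 95% interval 0.23 to 1.12) missed the threshold (adjusted p = 0.101), and it was 0.88 (adjusted p = 0.0125) without animal 3.

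In 1-week animals 1, 2, 4 and 5 Osmr was 5.53, 5.50, 5.81 and 5.79. All of these lay below the lowest 3-day array, by as little as the gap from 5.81 to 5.83. The 3-day arrays were higher by 0.81 (SE 0.21, adjusted p = 0.0462), one of the 2.47% of probe sets called in that comparison, and the call was lost in 15 of 24 fits that left out 1 array. Against its own controls the 1-week mean differed by -0.14 (95% interval -0.59 to 0.30), the 2-week mean by 0.14 (-0.40 to 0.69) and the 1-month mean by 0.54 (-0.01 to 1.08). Tead1, a transcription factor of the Hippo pathway, Mefv, the pyrin gene of myeloid cells, and Pxdc1 had the patterns nearest to Osmr, at distances of 0.24, 0.26 and 0.26 (SD of Osmr 0.41).

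Il6st, the gp130 chain itself, and Cntfr, the CNTF-binding chain, did not pass the test in any comparison with transected arrays. Il6st ranged from 10.05 to 10.45 at 3 days and from 9.82 to 10.27 in the 4-day controls (difference 0.12, 95% interval -0.08 to 0.31). At 2 weeks its values of 9.99 and 10.03 lay above controls of 9.70 to 9.91, by 0.22 (SE 0.12, adjusted p = 0.952). Cntfr differed by 0.03, 0.02, 0.00 and -0.03 at the 4 times in order, with 95% intervals that lay within -0.36 to 0.33.

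Both of these receptor genes passed the test between 2 uninjured groups, as the values were deposited. Neither did after another quantile normalization of the arrays (adjusted p = 0.0859 for Cntfr and 0.181 for Il6st) or after cyclic loess (0.0853 and 0.177). Cntfr was 8.40, 8.41, 8.47 and 8.29 in 1-month controls 1 to 4 and 7.96, 8.01, 7.81 and 7.75 in 2-week controls 1 to 4. The groups did not overlap, and the 1-month controls were higher by 0.51 (SE 0.13, adjusted p = 0.0203). Il6st was higher in the same comparison by 0.31 (SE 0.095, adjusted p = 0.046), with 10.02 to 10.24 against 9.70 to 9.91. These were 2 of 10 genes called, where 10.2% of all probe sets were. Marker lists moved as well. The neuronal list had array means of 10.82 to 10.94 in the 2-week controls and 10.95 to 11.01 in the 1-month controls. In the same order the oligodendrocyte list had 9.78 to 9.90 and 10.08 to 10.18. The astrocyte list had 9.04 to 9.51 and 9.50 to 9.73, and the microglial list 7.46 to 7.85 and 7.47 to 7.71. The part of these cells in the result was not tested. The Il6st call was lost in 16 of 24 fits that left out 1 array and the Cntfr call in 3, without 2-week control 3 or 4 or 1-month control 3, with adjusted p-values up to 0.0634. Between 2-week and 4-day controls, and between 1-month and 4-day controls, limma called 0 of the 10 genes (0% and 0.0043% of all probe sets), with 1 gene each at an unadjusted p under 0.05 (beside 3315 and 3065 probe sets) and 0 by the methods' t-test.

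The ligand genes showed no called difference. Lif, leukemia inhibitory factor, had group means from 5.90 to 6.16, and its 4 differences from controls ran from -0.01 to 0.06, with intervals that lay within -0.29 to 0.34. Cntf, ciliary neurotrophic factor, was 8.83, 8.90, 7.87 and 8.86 in 3-day animals 1 to 4 and 8.83, 8.13, 7.48 and 8.33 in 4-day controls 1 to 4. Animals 1, 2 and 4 sat together and animal 3 was far below them. The difference of 0.42 (SE 0.26, 95% interval -0.12 to 0.96, adjusted p = 0.53) was smaller than the spread within either group, with SDs of 0.50 and 0.56.

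Of the kinases that bind the receptors, Jak2 had group means of 7.48 at 3 days and 7.12 in the 4-day controls. The difference was 0.36 (SE 0.16, 95% interval 0.03 to 0.68, adjusted p = 0.295), with overlapping arrays of 7.10 to 7.81 and 6.62 to 7.37. At the later times Jak2 differed by 0.25, 0.17 and 0.09. Jak1 stayed within 10.02 and 10.52 on all 24 arrays, and its differences of 0.17, 0.03, 0.15 and -0.07 did not pass the test; at 2 weeks its values of 10.31 and 10.35 lay above every control, which reached 10.29.

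Stat3, the transcription factor at the end of the pathway, rose at 3 days by 0.89 (SE 0.13, 95% interval 0.61 to 1.18, adjusted p = 0.000644), a 1.86-fold change that ranked number 55 by p. The 3-day animals 1 to 4 had 8.39, 8.49, 8.69 and 8.19. The 4-day controls 1 to 4 had 7.82, 7.43, 7.14 and 7.78. Every 3-day array exceeded every control, a separation that 2.75% of probe sets had in this direction. The call held in all 24 fits that left out 1 array, with adjusted p-values of 0.000325 to 0.00338. Leaving out an array of a group not compared kept the difference at 0.89 and could act only through the shared spread. Without 4-day controls 3 and 4 together the rise was 0.81 (adjusted p = 0.00862). The call was lost where only the groups compared entered the fit (adjusted p = 0.105) and in the methods' t-test (adjusted p = 0.367, unadjusted p = 0.00339).

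At 1 week Stat3 was 7.98, 7.80, 8.04 and 7.84 in animals 1, 2, 4 and 5. This lay below every 3-day array and overlapped the 4-day controls. The difference from controls was 0.37 (SE 0.13, 95% interval 0.09 to 0.65, adjusted p = 0.999), and the 3-day arrays exceeded the 1-week arrays by 0.52 (SE 0.13, adjusted p = 0.04), a call lost in 15 of 24 fits that left out 1 array. At 2 weeks Stat3 was 8.06 and 7.94 in animals 3 and 4 against 6.98, 7.48, 7.30 and 7.37 in the controls, with no overlap. The difference of 0.72 (SE 0.16, 95% interval 0.37 to 1.06) ranked number 15 by p but had an adjusted p of 0.434. In the study, Stat3 at 2 weeks was the only point where PCR and arrays disagreed. Among possible reasons it named poor PCR conditions for Stat3. At 1 month the animals had 7.68 and 7.69 and the controls 7.43, 7.21, 7.45 and 7.47, again apart, with a difference of 0.30 (SE 0.16, 95% interval -0.05 to 0.64).

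Over the 4 times Stat3 rose by 0.57 (SE 0.082, adjusted p = 0.0024, a 1.48-fold change), number 8 of all probe sets by p, and 9 of 12 transected arrays exceeded the highest of the 12 controls (7.82). Ordered by group mean, Stat3 stood at 8.44 at 3 days, next at 2 weeks (7.94 and 8.06), then at 7.91 at 1 week and 7.68 at 1 month, and at 7.54, 7.39 and 7.28 in the 4-day, 1-month and 2-week controls. In this order the 3-day arrays did not overlap the next group and the 1-week arrays did not overlap the 1-month arrays, while every other pair of neighbours overlapped. Lifr had another order, with 9.46 at 2 weeks, 9.37 at 3 days, 9.33 at 1 month and 9.17 at 1 week above controls of 9.02, 9.01 and 8.83, and its 3 highest groups overlapped each other.

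Whether the size of the effect differed between times was tested directly. None of the 10 genes had a called difference between the effect at 3 days and that at 2 weeks or 1 month, where 0.0904% of all probe sets were called in each comparison. At an unadjusted p under 0.05 limma had 0 of the 10 for 2 weeks and 2 for 1 month, beside 1623 and 1679 probe sets. The 2 were Stat3, whose effect was larger at 3 days by 0.60 (95% interval 0.16 to 1.04, adjusted p = 0.479), and Socs3, by 0.36 (0.07 to 0.64, adjusted p = 0.536).

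Socs3, which encodes the feedback inhibitor of the receptor and is itself a STAT3 target, showed no called difference at any time. It was 6.36, 6.23, 6.20 and 6.60 in 3-day animals 1 to 4 and 6.35, 6.36, 6.44 and 6.10 in 4-day controls 1 to 4. The groups overlapped throughout, and the difference of 0.03 had a 95% interval of -0.15 to 0.21. At 1 month Socs3 was 5.97 and 5.93 against 6.33, 6.24, 6.21 and 6.31, with both animals below every control and below all other arrays of the series. That separation downwards was present in 7.55% of probe sets, and the difference of -0.32 (SE 0.11, 95% interval -0.55 to -0.10, unadjusted p = 0.00652) had an adjusted p of 1. Socs3 varied little, with an SD of 0.15 over the 24 arrays, and its nearest genes by pattern, Aldh1l2, Sftpb and Gbx1, lay at distances of 0.084 to 0.096.

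**Figure D2:**
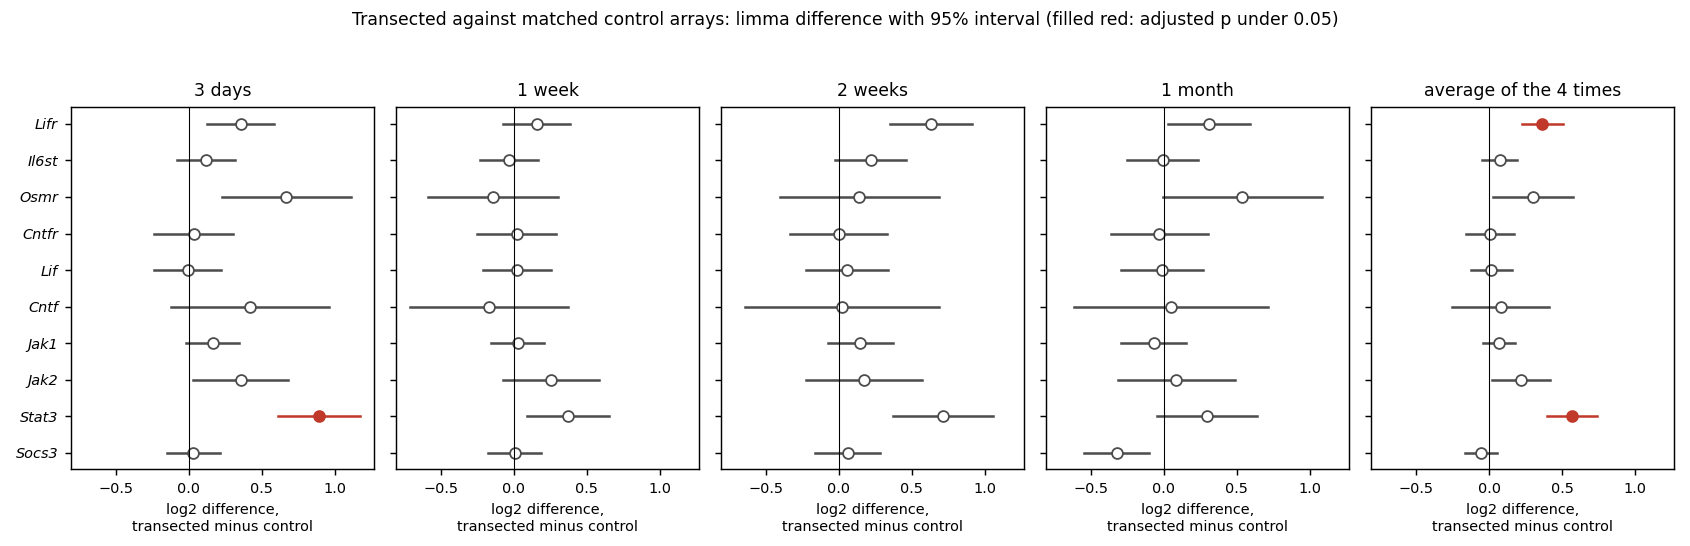
Log2 difference between transected arrays and the control arrays they were compared with, for the 10 genes at each time and for the average of the 4 times (circles, limma estimates; lines, 95% intervals; filled red, adjusted p under 0.05). Filled circles are present for Stat3 at 3 days (0.89) and for Stat3 (0.57) and Lifr (0.36) in the average, and the intervals are wider at 2 weeks and 1 month, where 2 animals were measured.

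Counting groups that did not overlap, 1 of the 10 genes lay wholly above its controls at 3 days (Stat3), against 2.75% of probe sets, and 1 at 1 week (Lifr), against 0.723%. At 2 weeks 4 of 10 did (Lifr, Stat3, Il6st and Jak1), against 9.9% of probe sets, and at 1 month 2 of 10 (Lifr and Stat3), against 5.93%.

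The genes around the 10 were read from 6 further lists, of which 61 genes were tested. Among 6 other ligands, 3 other receptors, 6 other kinases and STATs, and 7 adaptors of the SHP2, Ras and PI3K branch, 0 genes passed limma's test at any of the 4 times. Over all probe sets 2.89% passed at 3 days and 0% at each later time. At an unadjusted p under 0.05 there were 5 of these listed genes at 3 days (Il6, Il6r, Jak3, Stat6 and Sos1) and 2 at 2 weeks (Osm, lower, and Stat2). Beside these stood 3302 and 1229 of the 23240 probe sets. Il6, the ligand interleukin 6, differed by 0.61 at 3 days (SE 0.21, adjusted p = 0.145), and Il6r, its binding receptor chain, by 0.27 (SE 0.13, adjusted p = 0.344). Among 13 other inhibitors, Ptpn6, the phosphatase SHP-1 that blood and immune cells use, rose at 3 days by 0.72 (SE 0.12, adjusted p = 0.00142). Ptpn1, the phosphatase PTP1B, differed by 0.64 (SE 0.19, adjusted p = 0.0719).

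Of 26 textbook STAT3 target genes tested, 9 rose at 3 days and 0 fell, where 2.89% of all probe sets passed in either direction. The median log2 difference of the list was 0.18, beside -0.01 over all probe sets. Of the 26, 19 had a higher mean and 7 a lower one, down to -0.45, where 47.6% of all probe sets were higher. The list holds genes already known to rise in these arrays and is not independent evidence of direction. Those that rose were Atf3 (2.17), a stress-induced transcription factor of injured neurons, Timp1 (2.09), an inhibitor of matrix metalloproteinases, Lcn2 (1.84), an iron-binding acute-phase protein, and Vim (1.79), an intermediate filament of glia and other cells. The others were the protease inhibitors Serpina3n (1.69) and A2m (0.65), the cell cycle inhibitor Cdkn1a (1.11), the lipopolysaccharide-binding protein Lbp (0.76) and the kinase Pim1 (0.37). Other classical targets did not pass, among them Junb at 0.05, Mcl1 at 0.04, Bcl2l1 at 0.26 and Gfap at 0.91 (adjusted p = 0.23). At 1 week, 2 weeks and 1 month 0 of the 26 passed limma's test, where 0% of all probe sets did. The list medians were 0.07, 0.10 and -0.01. At an unadjusted p under 0.05 there were 5, 5 and 4, beside 1031, 1229 and 799 of the 23240 probe sets.

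**Figure D3:**
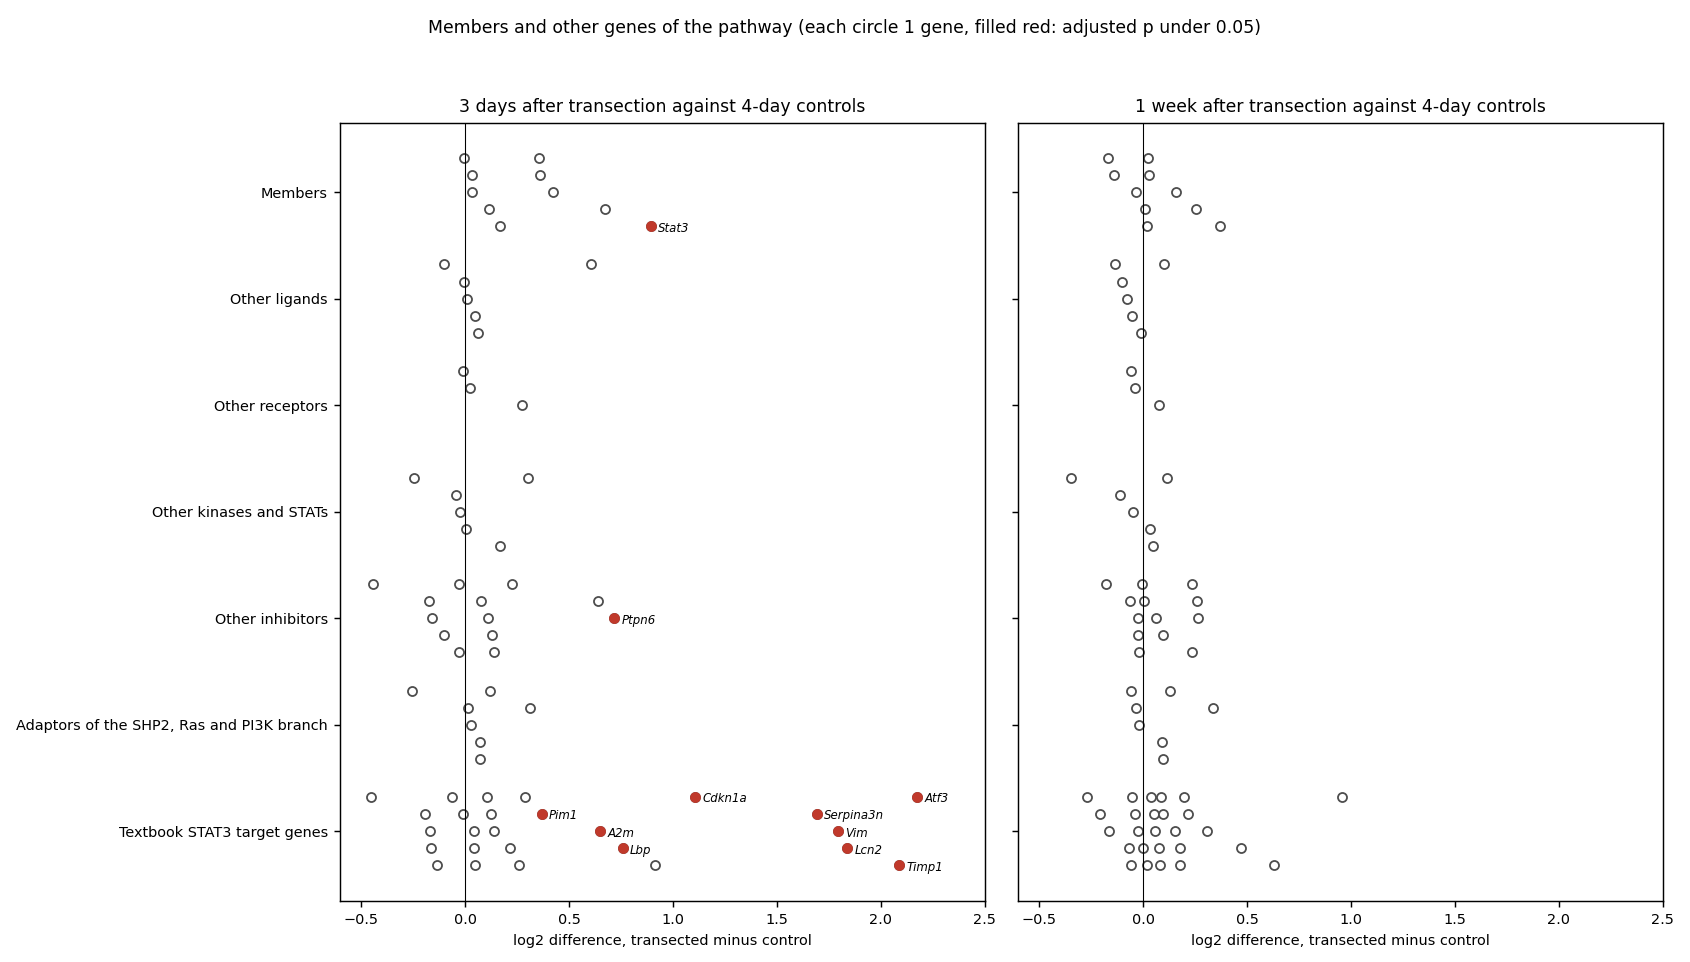
Log2 difference at 3 days (left) and at 1 week (right) against the same 4-day controls for the 10 genes and 6 lists of further pathway genes (circles, genes; filled red with a name, adjusted p under 0.05). At 3 days Stat3, Ptpn6 and 9 STAT3 target genes are filled, and at 1 week no circle is.

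Markers of other cells moved in the same arrays. Of 13 genes of microglia and macrophages, 9 rose at 3 days (median log2 difference 1.12), where 2.89% of all probe sets passed in either direction. The mean of the list was 8.92 to 9.43 in the 3-day arrays, against 7.33 to 8.65 in the 4-day controls, with no overlap. At the later times 0 of 13 passed limma's test, where 0% of all probe sets did. All 13 had a higher mean at each time, with medians of 0.45, 0.74 and 0.59. At an unadjusted p under 0.05 there were 5, 9 and 5, beside 1031, 1229 and 799 of the 23240 probe sets. For the average of the 4 times 7 of 13 rose, with a list median of 0.68, where 0.404% of all probe sets passed. In the 4-day controls Itgam had a mean of 5.88, near the filter on low values at 5.05, and C1qb of 7.84; the files give no detection call for either. The pattern nearest to Stat3 over the 24 arrays was that of Vwa5a (distance 0.19), followed by Ptpn6 (0.23) and Inpp5d (0.23), a phosphatase of blood and immune cells, where Stat3 had an SD of 0.44. Within the 3-day group, animal 3 had the highest Stat3 (8.69) and the lowest mean of the microglial list (8.92), and it was also the lowest of the 4 for Osmr and Cntf. In other groups some arrays were low or high for both. 4-day control 3 had the lowest Stat3 (7.14) and list mean (7.33) of its group, and 2-week control 1 likewise (6.98 and 7.46). 2-week control 2 was the highest of its group in both (7.48 and 7.85). 1-week animal 2 was the lowest of its group in both, and 2-week animal 3 was above animal 4 in both. Other arrays differed: 1-month control 4 had the highest Stat3 (7.47) and the lowest list mean (7.47) of its group. 1-month animal 2 was above animal 1 for Stat3 and below it for the list. In the 4-day controls and the 1-week animals, the highest Stat3 and the highest list mean were on different arrays.

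In other lists at 3 days, 1 of 12 neuronal markers fell (Rbfox3, the nuclear protein NeuN, by 0.40 on the log2 scale). Of 9 astrocyte markers 2 fell (Slc7a10 and Kcnj10), and 1 of 8 oligodendrocyte markers rose (Cldn11). At this time 2.89% of all probe sets passed in either direction. By mean, 7 of the 9 astrocyte markers were lower and 2 higher, Gfap by 0.91 and Slc1a3 by 0.22. Among 5 endothelial, 7 fibroblast and pericyte, and 7 neutrophil and lymphocyte markers, 0 passed. The array means of the neuronal list were 10.57 to 10.93 at 3 days and 10.77 to 10.93 in the 4-day controls. Those of the astrocyte list were 9.28 to 9.55 and 9.05 to 9.89. Between 3 days and 1 week, where Stat3 and Osmr differed, 4 of 13 microglial markers were also higher at 3 days, with a list median of 0.66. In that comparison 2.47% of all probe sets were called. The part of these cells in the results for Stat3, Lifr and Osmr was not tested.

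**Figure D4:**
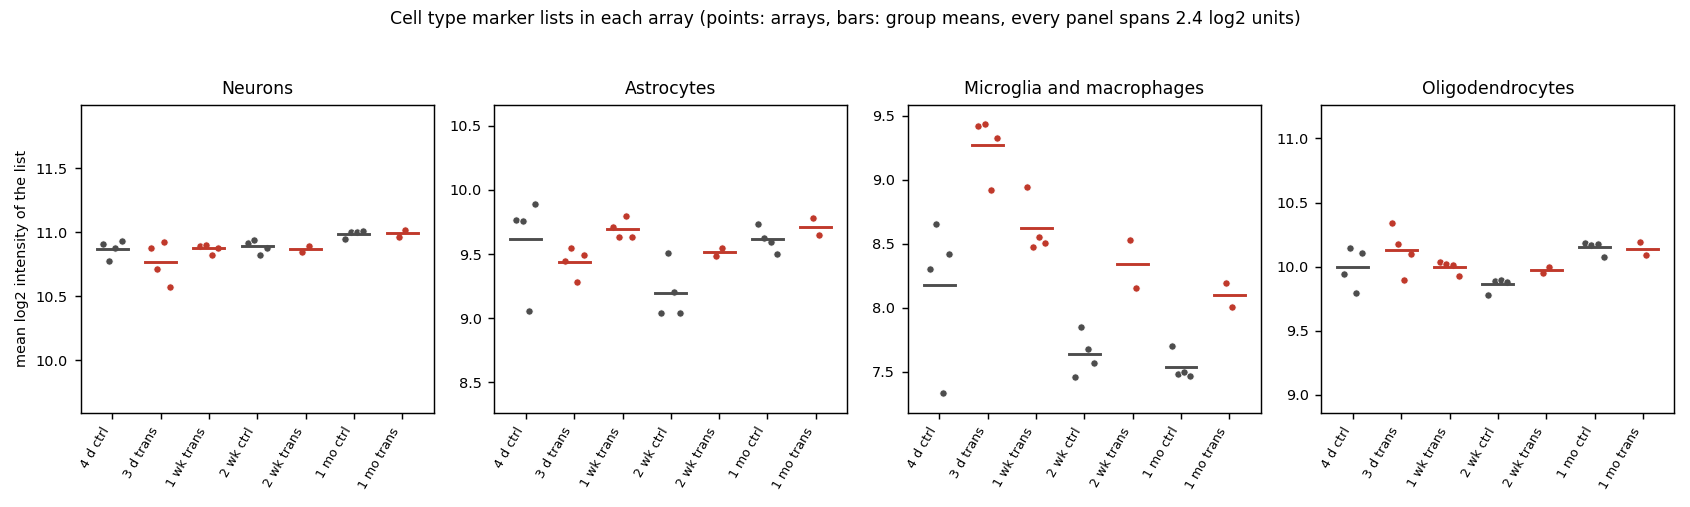
Mean log2 intensity of 4 cell type marker lists in each array, by group (grey, controls; red, transected; points, arrays; bars, group means; each panel spans the same width in log2 units). The microglia and macrophage list lies at 8.92 to 9.43 at 3 days, above the 4-day controls at 7.33 to 8.65, and the neuronal list stays between 10.57 and 11.01.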

How the data were processed

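RNA of laser-dissected, Fluoro-Gold labelled TPS neurons was measured on 24 Rat Gene 1.0 ST arrays, 1 for each rat. RMA normalization was run by the authors in GeneSpring GX, and the intensity values they deposited are on a linear scale (17 to 7979.81), of which log2 was taken here; the build behind the probe annotation is not given in the sources used here. Background correction and summarization are therefore as deposited, and precision is limited by how many arrays there are. Probe sets were named through the platform annotation (15097 with 1 symbol, 323 with several, 11922 with none, of 27342), and the 23240 with a mean log2 above the lowest 15 percent (5.05, an intensity of 33.2) were tested. The 7 group means came from a limma 3.58.1 model (R 4.3.3; prior degrees of freedom 3.64, residual 17), two-sided, with Benjamini-Hochberg adjustment within each comparison and 95% intervals. The lists named further pathway genes and cell type markers, and the text names the 10 members and every pathway gene that passed the test against controls at any of the 4 times. Likeness is the root mean square distance over centred log2 values. The members and lists were chosen with earlier results of these data known. The fit was tested on simulated data. Alternatives were other filters, moderation, weights, normalizations, controls, a replicate block, the methods' t-test (2 groups, equal variance, in the study for its PCR genes, while its single-gene array test was a 2-way analysis of variance, not repeated here) and leaving out each array. Replicate numbers did not pair the rats: same-numbered arrays of different groups had a mean r of 0.0215 (55 pairs) and others of -0.00631 (189 pairs). No label ties arrays to a batch. Upstream sequences are from RefSeq GRCr8 (7 of 10 members matched). Tables and plots were made in Python 3.11.15 with numpy 2.4.6, pandas 2.3.3 and matplotlib 3.10.9.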

Additional observations from a re-analysis of the deposited data

Results flagged for a closer look

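Within groups of 4 arrays, 3 single values stood far from the rest of their group out of 50 sets of gene and group examined, where chance alone puts about 1 in 20 there. Cntf in 3-day animal 3 was 7.87 beside 8.83 to 8.90 in the other animals. Jak2 in 4-day control 3 was 6.62 beside 7.24 to 7.37, and Stat3 in 1-month control 2 was 7.21 beside 7.43 to 7.47. Between 3 days and 1 week, tested directly, Osmr was higher at 3 days by 0.811 and Stat3 by 0.524 in log2.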

How the results depend on the processing

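Stat3 at 3 days kept its direction in 35 of 35 alternatives and its call in 33, and Stat3 averaged over the 4 times kept its call in 33 of 33. Fits that left out an array of a group not compared could not alter the 3-day difference itself. Given below are counts of the 10 genes called. At 3 days (1 as reported) the count was 0 with only the groups compared and 0 in the methods' t-test, 4 with all 12 controls pooled (Lifr, Osmr and Jak2 added), and 1 to 2 when leaving out each array. For 3 days against 1 week (2 as reported) it was 1 without a filter and 1 with pooled controls. It was 0 with only the groups compared, 0 in the methods' t-test, and 0 to 2 when leaving out each array. With the filter at the median it was 1, but Osmr and Lif were left untested there, with means above 39.0% and 42.7% of probe sets. At 2 weeks (0 as reported) the count was 2 with array weights (Lifr and Stat3). For the average (2 as reported) it was 1 without 4-day controls 3 and 4 together, a setting chosen after seeing the data, and 1 to 2 when leaving out each array. Between 2-week and 4-day controls (0 as reported) Il6st made it 1 with array weights, 1 without 4-day controls 3 and 4 together, and 0 to 1 when leaving out each array. Between 1-month and 2-week controls (2 as reported) it was 0 after another quantile normalization, 0 after cyclic loess, and 0 to 2 when leaving out each array. Over all probe sets, the 671 called at 3 days were 22 with only the groups compared, 0 in the methods' t-test, 2117 with pooled controls, and 419 to 1056 when leaving out each array. The cause of these differences was not tested.

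No source used here ties a replicate number to a shared animal or batch, and 8 of 24 arrays were closest to an array of their own number. With the number as a replicate block, 1 of the 10 genes was called for 3 days against 1 week, where Stat3 had an adjusted p of 0.152, and 395 probe sets were called in place of 574; no other count of the 10 genes changed. Another probe set for a gene could not be tried, since each has 1. At 2 weeks and 1 month the transected groups held 2 animals each, and the intervals there are the widest.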
